A study of Mus musculus with 15 samples.

Results

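Transcript levels were compared between C2C12 myotubes exposed to the highest and to the lowest dose of Jakyak-gamcho-tang (JGT), 500 and 20 µg/mL, for 24 h. C2C12 cells are mouse myoblasts that stop dividing and fuse into contractile myotubes when serum is lowered, and JGT is a dried hot-water extract of equal weights of peony root and licorice root. The 6 libraries, 3 per dose, were chosen by their dose labels out of the 15 of the series, and the 3 libraries at 100 µg/mL entered only the estimate of spread and the dose course. Of 42807 gene symbols in the count table, 14397 had enough counts to be tested. All cells had differentiated for 6 days, no atrophy-inducing drug is named in their labels, and both doses carried DMSO from the stock, which by dilution came to 0.1% of the medium at 500 µg/mL and 0.004% at 20 µg/mL. The sources do not give whether DMSO was equalised, so the extract dose and its DMSO cannot be told apart. The highest dose was the concentration calculated to leave 80% of the myotubes viable. The labels do not say that the libraries of a dose came from separate cultures, so a p-value here rests on library-to-library spread that may be technical.

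Plant extracts meet 2 sensors of foreign chemicals in mammalian cells. The aryl hydrocarbon receptor binds planar ring compounds, moves to the nucleus and switches on cytochrome P450 and conjugating enzymes. NRF2 is held back by KEAP1 until electrophiles or oxidants modify KEAP1, after which it raises glutathione, quinone-reducing and NADPH-producing enzymes. A C2C12 culture also holds mononucleated reserve cells beside the myotubes, and it is these cells, not the myotube nuclei, that can still replicate DNA and divide.

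The 3 libraries at 20 µg/mL held between 29186074 and 36443438 counts and the 3 at 500 µg/mL between 27846117 and 33988045. Replicate 2 at 500 µg/mL stood apart from its group: on the first principal component of the 9 JGT libraries, with 40.9% of the variance, it lay at 8.03, where replicates 1 and 3 lay at 30.9 and 32.8 and all 6 libraries at lower doses at −8.97 or below. It was the deepest of its group and had the highest share of mitochondrially encoded counts, 4.94% against 4.27% and 3.47%. Replicate 1 at 20 µg/mL had the same 2 features within its own group, the highest total and 5.11%. Where the number of rising or of falling genes in a list changed by over 1.5 times without replicate 2 at 500 µg/mL, both counts are given. Muscle markers were abundant at both doses: the summed level of 8 muscle markers lay between 14937 and 15596 counts-per-million units (CPM) at 20 µg/mL and between 13969 and 14946 at 500 µg/mL. Markers of macrophages, endothelium and epithelium summed to at most 7.71 CPM in any of the 6 libraries, and the adipocyte genes Plin1, Cidec, Lep, Retn and Cfd had 0 counts in all of them. Neural markers summed to between 55.7 and 60.0 CPM at 20 µg/mL and between 46.7 and 50.9 CPM at 500 µg/mL, nearly all of it from the tubulin Tubb3, with Rbfox3, Snap25, Syt1 and Sox10 at 0.

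Between the lowest and the highest dose, 2706 genes, 18.8% of those tested, passed edgeR's quasi-likelihood test at a Benjamini-Hochberg adjusted p below 0.05. Of these, 1232 (8.56%) were higher at 500 µg/mL and 1474 (10.2%) lower, and "rose" and "fell" are used below only for such genes. Most changes were small: the median log2 fold change was 0.27 among genes that rose and −0.36 among those that fell, and 90 rose and 185 fell by at least 1 on the log2 scale. The median over all genes tested was 0.01. The levels of the 3 libraries of one dose lay wholly outside those of the other for 4694 genes (32.6% of those tested), which include 2639 of the called ones. Calls near the threshold were lost when single libraries were left out, and the 59 named genes for which this or another alternative ended the call are listed in the closing section. Replicate 2 at 500 µg/mL set how many genes passed: without it 2487 (17.3%) rose and 2547 (17.7%) fell. List counts given below without this library are to be read against these shares of all genes, and not against 8.56% and 10.2%.

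**Figure D1:**
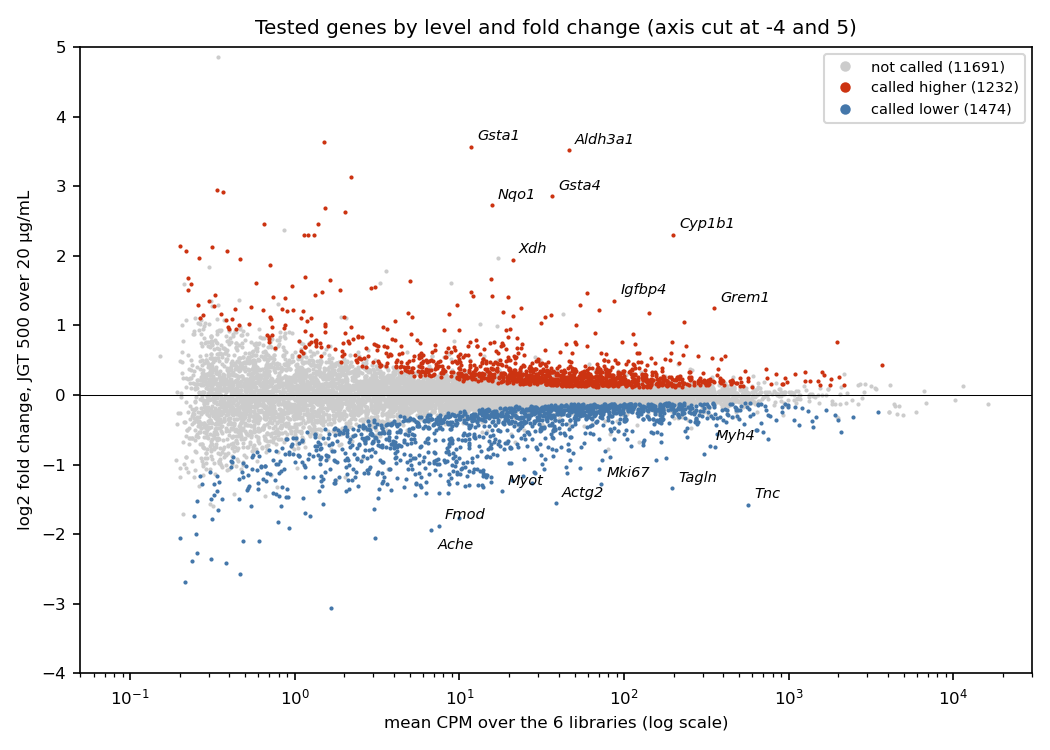
Each point is 1 of the tested genes, with its mean CPM over the 6 libraries on a log axis and its log2 fold change of JGT 500 over 20 µg/mL on the other, coloured by call (1232 higher, 1474 lower, 11691 not called). Large rises include detoxification genes such as Gsta1, Aldh3a1 and Cyp1b1, and large falls include Ache, Fmod, Tnc, Actg2 and Tagln. Most called genes lie within 1 log2 unit of no change. Points outside the plotted range are not drawn.

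Of the 15 genes with the largest rise, 5 are on the list of aryl hydrocarbon receptor targets and 3 on that of NRF2 targets, with Nqo1 on both. The other rises named by the same rule came from several functions. Akr1c14, a hydroxysteroid dehydrogenase, rose by 1.64 on the log2 scale and Adh7, an alcohol dehydrogenase that also oxidises retinol, by 1.40. Mal, a membrane proteolipid of vesicle traffic, went from 7.49 ± 0.185 to 23.7 ± 1.22 CPM (mean ± SD, n = 3, as throughout). The interleukin 1 receptor antagonist Il1rn rose from 8.49 ± 0.811 to 22.9 ± 2.65 CPM, the monocarboxylate transporter Slc16a11 from 6.62 ± 0.222 to 17.7 ± 0.822 CPM and the sodium-iodide symporter Slc5a5 from 5.53 ± 1.12 to 13.7 ± 0.793 CPM. The peptidase inhibitor Pi15 had 34.8, 31.0 and 29.1 CPM at 20 µg/mL and 91.5, 88.3 and 83.6 CPM at 500 µg/mL. A lack of overlap between the doses was a condition for choosing the 15 rises and 15 falls, so it adds nothing to their tests. Ugt1a6a, Pi15 and Adh7 overlap an exon of a gene on the opposite strand, and since the strand setting of the counting is not given, reads of both genes may be in their counts.

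**Figure D2:**
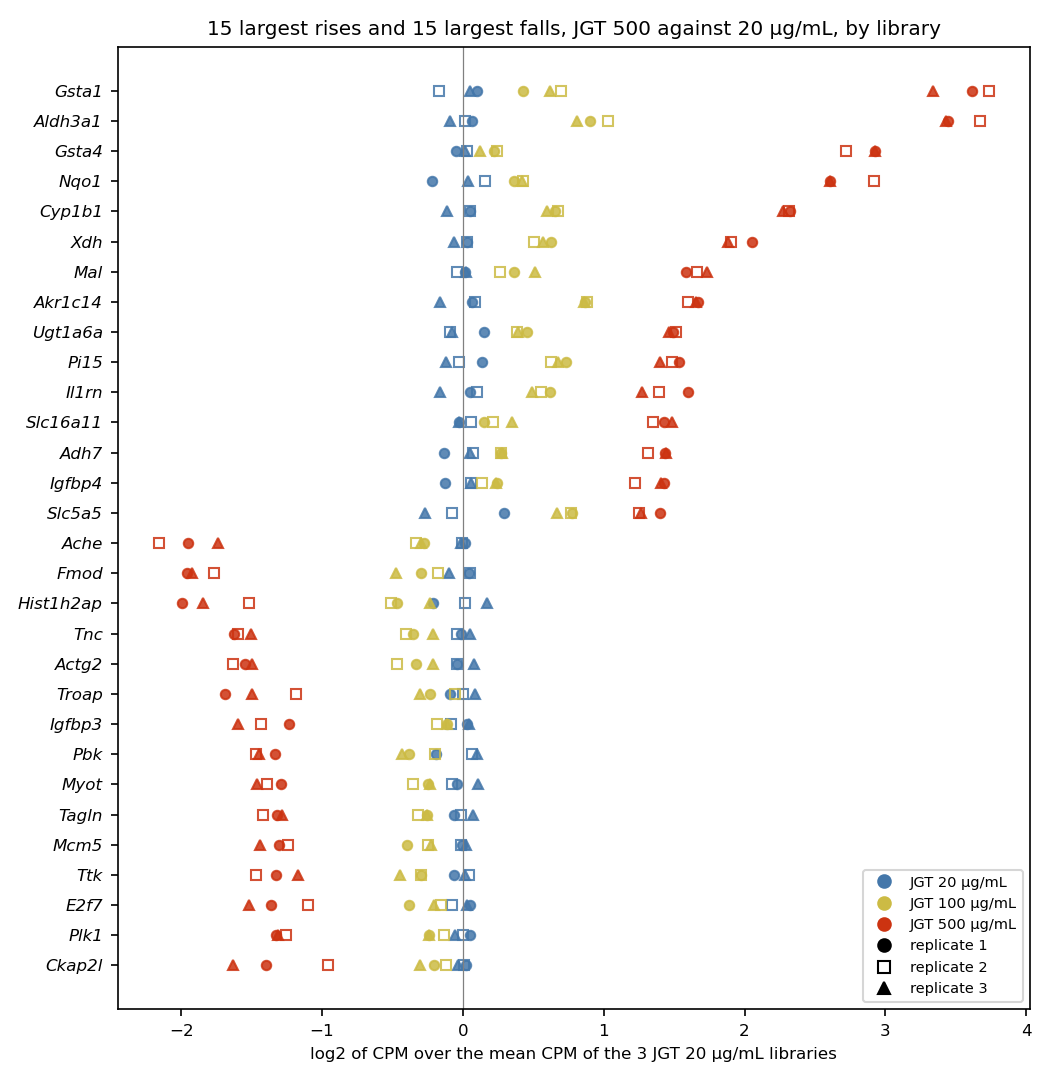
For the 15 largest rises and 15 largest falls, each marker is 1 library, placed by the log2 ratio of its CPM to the mean CPM of the 3 libraries at 20 µg/mL; colour gives the dose and shape the replicate. The 30 genes were chosen to be called and to have no overlap between 500 and 20 µg/mL. The 100 µg/mL libraries, which entered that choice through the estimate of spread, lie nearer to the 20 µg/mL ones for most.

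Targets of the aryl hydrocarbon receptor had the highest median change of the 36 gene lists. Of 12 tested members, 9 rose, 2 fell and 1 was not called, against 8.56% of all genes rising, and their median log2 fold change was 1.95. Cyp1a1, a P450 that oxidises planar aromatic compounds, had 0 counts in all 3 libraries at 20 µg/mL and 59, 56 and 40 counts at 500 µg/mL, which is at least 53.6-fold higher relative to library totals when the 20 µg/mL group is set at a floor of 3 counts over the group. The exact 95% interval of that ratio, which covers counting error only, reaches down to 43.1-fold. At 100 µg/mL it had 2 counts and in vehicle 1. The list median with Cyp1a1 at that bound is the same 1.95, which is no check, since Cyp1a1 lies above the median either way. Cyp1b1, the related P450 that is also active outside the liver, had 69.6, 69.4 and 62.1 CPM at 20 µg/mL and 336, 334 and 324 CPM at 500 µg/mL. All 3 high-dose libraries were near each other and far above the low-dose ones, a 4.94-fold rise (log2 2.30 ± 0.05, SE; adjusted p = 4.51e-12, edgeR's quasi-likelihood test with Benjamini-Hochberg adjustment).

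Upstream of their start sites, Cyp1a1 and Cyp1b1 both hold the core letters that the receptor and its partner ARNT bind, and the 160 bases before each start are shown because these P450 genes are the classic readouts of the receptor. The core searched was GCGTG on both strands, in capitals here, in RefSeq windows of the GRCm38.p6 build.
Cyp1a1, chr9:57697453-57697612, plus strand: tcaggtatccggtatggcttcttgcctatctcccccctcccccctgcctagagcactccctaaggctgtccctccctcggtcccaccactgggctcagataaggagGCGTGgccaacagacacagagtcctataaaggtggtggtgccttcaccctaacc
Cyp1b1, chr17:79715062-79715221, minus strand: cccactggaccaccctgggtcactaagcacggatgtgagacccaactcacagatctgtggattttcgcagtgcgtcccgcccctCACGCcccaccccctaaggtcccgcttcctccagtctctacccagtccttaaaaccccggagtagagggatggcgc
The match in Cyp1a1 begins 54 bases and that in Cyp1b1, on the reverse strand, 76 bases before the start. The core is common: in the 300-base windows, from 250 bases before to 50 after the start, it was present in 5 of 8 listed genes with a window (62.5%) and in 55.6% of the 10104 tested genes with one.

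Among the conjugating and oxidising members, Aldh3a1, an aldehyde dehydrogenase, had 7.79, 7.52 and 7.00 CPM at 20 µg/mL and 80.8, 94.7 and 80.1 CPM at 500 µg/mL. Replicate 2 was the highest of the high-dose libraries and all 3 were over 10 times the highest low-dose one, for a fold change of 11.4 (log2 3.52 ± 0.08, adjusted p = 8.5e-12). Xdh, which makes uric acid from purines, rose 3.85-fold from 8.68 ± 0.308 CPM and Ugt1a6a, which glucuronidates phenols, 2.80-fold from 6.22 ± 0.591 CPM. Ugt1a7c, at 0.742 ± 0.254 CPM at most, shares its last exons with Ugt1a6a, so reads may be split between them. The feedback members moved less uniformly. Tiparp, an enzyme that marks the receptor for loss, rose by 0.41 and the repressor Ahrr by 2.46, from 0.428 ± 0.0903 to 2.34 ± 0.314 CPM. The list also held 2 falls, in the receptor gene Ahr, by 0.27 on the log2 scale from 43.1 ± 1.43 CPM, and in the amino acid transporter Slc7a5, by 0.22. Slc7a5 was not called without replicate 3 at 20 µg/mL or replicate 1 at 500 µg/mL (adjusted p = 0.0927 and 0.0823).

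Most targets of NRF2 also rose. Of 38 tested members, 30 rose (78.9%, against 8.56% of all genes), 1 fell and 7 were not called. Their median log2 fold change was 0.46. The largest rises were in alpha-class glutathione S-transferases, which attach glutathione to electrophiles. Gsta4, specialised for lipid aldehydes, had 8.53, 9.01 and 8.93 CPM at 20 µg/mL and 67.1, 58.2 and 67.1 CPM at 500 µg/mL. Replicate 2 was the lowest of the 3 high-dose libraries and still several times the highest low-dose one, for a 7.27-fold rise (log2 2.86 ± 0.07, adjusted p = 8.5e-12). Gsta1 had 1.96, 1.63 and 1.90 CPM and then 22.5, 24.4 and 18.5 CPM, 11.8-fold higher (log2 3.57 ± 0.12, adjusted p = 4.63e-10), with no overlap. Gsta2 rose by 3.64 from 0.221 ± 0.0168 CPM, and because Gsta1 and Gsta2 are close copies their reads may have been split. Gsta4 lies on chromosome 9 at 78182774 to 78209349 and Gsta1 on the same strand at 78230656 to 78242684 (GRCm38, GENCODE M21).

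The quinone reductase Nqo1, which both sensors regulate, had 3.56, 4.63 and 4.25 CPM at 20 µg/mL and 25.2, 31.3 and 25.2 CPM at 500 µg/mL. The high-dose libraries were all above 25 CPM and the low-dose ones all below 5 CPM, a 6.62-fold difference (adjusted p = 1.6e-09). Gstm1, a mu-class transferase, rose 2.32-fold from 42.3 ± 1.90 CPM. Members that act elsewhere in redox defence rose less: Pgd, a step of the pentose phosphate pathway that yields NADPH, 1.70-fold, the thioredoxin reductase Txnrd1 1.38-fold, the sulfiredoxin Srxn1 1.56-fold and the iron-storage subunit Fth1 1.69-fold. Heme oxygenase Hmox1 had 60.7, 59.4 and 52.6 CPM at 20 µg/mL and 83.8, 98.7 and 78.8 CPM at 500 µg/mL, 1.51-fold higher (log2 0.60 ± 0.08, adjusted p = 0.000173), and the groups did not overlap. The gene that fell was the aldose reductase relative Akr1b8, by 0.23 on the log2 scale. Gclc, the catalytic subunit of glutathione synthesis, was not called, while its modifier subunit Gclm rose from 30.3 ± 1.16 to 38.1 ± 1.26 CPM.

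Gclm is shown because it carries the core of the antioxidant response element close to its start. The core searched was TGACNNNGC, again on both strands.
Gclm, chr3:122245397-122245556, plus strand: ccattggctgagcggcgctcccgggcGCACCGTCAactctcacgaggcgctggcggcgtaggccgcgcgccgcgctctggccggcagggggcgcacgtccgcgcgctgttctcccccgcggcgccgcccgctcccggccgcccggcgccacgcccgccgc
The match, in capitals and on the reverse strand, begins 134 bases before the start. The core was present in the windows of 11 of 33 listed NRF2 targets (33.3%) and of 17.1% of tested genes. A match describes the letters of these windows and not a bound site.

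Cell cycle genes fell as a block. All 45 mitosis genes tested fell, against 10.2% of all genes, with log2 fold changes from −1.43 to −0.69 and a median of −1.13. Their summed level was between 1028 and 1051 CPM at 20 µg/mL and between 491 and 499.9 CPM at 500 µg/mL. Mki67, the proliferation antigen of chromosome surfaces, had 105, 104 and 97.3 CPM at 20 µg/mL and 45.0, 41.8 and 39.4 CPM at 500 µg/mL. No library of one dose came near the other, and the level was 2.42 times lower at the high dose (log2 −1.27 ± 0.05, adjusted p = 2.62e-09). Top2a, the topoisomerase that untangles sister chromatids, had 74.3, 73.1 and 72.5 CPM and then 36.3, 33.2 and 36.4 CPM (log2 −1.05 ± 0.04), again with both groups tight. Of the other kinases and regulators, the mitotic kinase Plk1 fell from 18.6 ± 0.676 to 7.55 ± 0.190 CPM, cyclin A2 (Ccna2) from 39.1 ± 1.33 to 16.3 ± 0.850 CPM and the cytokinesis scaffold Anln from 61.7 ± 0.731 to 28.4 ± 1.10 CPM. Of the 15 largest falls, 5 were mitosis genes: the spindle proteins Troap and Ckap2l, Plk1, the checkpoint kinase Ttk, which fell by 1.32 on the log2 scale, and the kinase Pbk, which fell by 1.41. In bulk RNA, fewer dividing cells and less of each transcript per cell cannot be told apart.

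DNA replication genes fell by less. Of 45 tested, 39 fell (86.7%, against 10.2% of all genes), none rose and 6 were not called, with a median of −0.61. Mcm5, a subunit of the replicative helicase, had 19.8, 19.7 and 20.2 CPM at 20 µg/mL and 8.07, 8.44 and 7.33 CPM at 500 µg/mL. The high-dose libraries were all under 9 CPM and the low-dose libraries all above 19 CPM (log2 −1.32 ± 0.07, adjusted p = 2.58e-08). Cdc6, which loads that helicase, fell by 1.64 from 4.59 ± 0.193 CPM, the largest fall of the list. Uhrf1, which guides maintenance methylation, fell by 1.14, the repressors E2f7 and E2f8 by 1.31 and 0.78, and the polymerase subunit Pole by 0.90. Toward the other end Rrm1, a subunit of the reductase that makes deoxynucleotides, fell by 0.24, from 106 ± 2.37 to 89.5 ± 3.96 CPM. Outside both lists, the histone gene Hist1h2ap fell by 1.76, from 15.3 ± 2.02 to 4.48 ± 0.770 CPM, but it is 1 of several near-identical copies and overlaps Gm44466 on the opposite strand.

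Promoters of such genes are known for 2 elements, the cell cycle homology region of genes that peak in mitosis and the E2F site of replication genes. The letters searched were TTTGAA for the first and TTTGGCGC or TTTCGCGC for the second. Mki67, Top2a and Mcm5 are shown with their matches in capitals.
Mki67, chr7:135716380-135716539, minus strand: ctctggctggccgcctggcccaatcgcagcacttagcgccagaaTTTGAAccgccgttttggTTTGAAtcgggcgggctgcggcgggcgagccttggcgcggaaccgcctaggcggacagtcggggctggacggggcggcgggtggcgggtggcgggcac
Top2a, chr11:99024190-99024349, minus strand: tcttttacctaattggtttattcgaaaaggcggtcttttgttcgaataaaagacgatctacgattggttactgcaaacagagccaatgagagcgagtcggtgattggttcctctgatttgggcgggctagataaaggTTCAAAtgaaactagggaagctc
Mcm5, chr8:75109349-75109508, plus strand: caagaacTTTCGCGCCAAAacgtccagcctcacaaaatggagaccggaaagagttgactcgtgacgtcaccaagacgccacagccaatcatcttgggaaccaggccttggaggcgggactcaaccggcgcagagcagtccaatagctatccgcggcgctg
The matches begin 116 and 98 bases before the start in Mki67, 23 in Top2a, on the reverse strand, and 153 and 149 in Mcm5, where a forward and a reverse match overlap. TTTGAA was present in the windows of 28 of 37 mitosis genes with a window (75.7%) and in 14.1% of tested genes. The E2F letters were present in 13 of 36 replication genes (36.1%) and in 1.73% of tested genes, and in 1 of 37 mitosis genes. CCAAT, which often neighbours the homology region, was present in 78.4% of mitosis genes and 42.9% of tested genes. Among all genes that fell, TTTGAA was in 19.3% of windows and the E2F letters in 3.41%.

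Inhibitors of the cycle did not move as a group. Of 26 tested p53 targets and cyclin-dependent kinase inhibitors, 5 rose and 5 fell (19.2% each, against 8.56% and 10.2% of all genes), with a median of −0.01, and without replicate 2 at 500 µg/mL 9 rose and 7 fell. Cdkn1a, the inhibitor p21 that keeps myotube nuclei out of the cycle, had 1670.2, 1679 and 1734 CPM at 20 µg/mL and 1907, 1828 and 1907 CPM at 500 µg/mL. The doses did not overlap, but the rise was 1.11-fold (adjusted p = 0.0163), and it was not called without replicate 1 or 2 at 20 µg/mL or replicate 1 at 500 µg/mL (adjusted p = 0.0833, 0.0685 and 0.0571). The growth-arrest gene Gadd45a rose 1.47-fold, Trp53inp1 1.27-fold and the death effector Bax 1.19-fold. The kinase inhibitor Cdkn1b rose by 0.17. Of the falls, Gadd45b, a relative of Gadd45a, fell by 0.29, the pocket protein Rbl1 by 0.43, the inhibitors Cdkn2d and Cdkn1c by 0.27 and 0.30 and p53 itself (Trp53) by 0.20.

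More genes of the contractile apparatus fell than rose. Of 56 tested sarcomere genes, 18 fell (32.1%, against 10.2% of all genes) and 4 rose (7.14%, near the 8.56% of all genes). The other 34 were not called, and the list median was −0.07. Without replicate 2 at 500 µg/mL 20 fell and 11 rose, when 17.7% of all genes fell and 17.3% rose. Myot, which crosslinks actin at the Z-disc, had 25.3, 24.7 and 28.1 CPM at 20 µg/mL and 10.7, 9.93 and 9.45 CPM at 500 µg/mL, 2.60 times lower with no overlap (adjusted p = 1.64e-08). The slow myosin-binding protein Mybpc1 fell by 1.06 to 45.5 ± 3.87 CPM and the myosin light chain kinase Mylk2 from 48.2 ± 0.881 to 26.3 ± 1.42 CPM. Not all listed adult fast myosin heavy chains fell, and those that did fell by different amounts. Myh4, of type IIb fibres, had 418, 422 and 403 CPM and then 260.0, 236 and 251 CPM (log2 −0.73 ± 0.04, adjusted p = 4.58e-08), and Myh2, of type IIa fibres, fell by 0.56. The slow chain Myh7 fell by 0.53 and the perinatal chain Myh8 by 0.34.

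The embryonic chain Myh3 had 3767, 3829 and 3822 CPM at 20 µg/mL and 3306, 2772 and 3526 CPM at 500 µg/mL. Replicate 2 was the lowest high-dose library, and the fall of 0.25 on the log2 scale (adjusted p = 0.0291) was not called when replicate 1 at 500 µg/mL or any single library at 20 µg/mL was left out (adjusted p from 0.0548 to 0.0869). The members that rose were the cardiac-type troponins Tnnt2 and Tnnc1, by 0.33 and 0.29, the M-band protein Myom2, by 0.18, and the thin-filament nucleator Lmod3, by 0.15. For Tnnt2 the high-dose libraries had 1915, 1463 and 1899 CPM against 1386, 1417 and 1409 CPM at the low dose, so that replicate 2 was the nearest to the low-dose level. None of these 4 rises was called without replicate 1 or without replicate 3 at 500 µg/mL, or without replicate 2 or 3 at 20 µg/mL (adjusted p from 0.0545 to 0.208), and for Tnnt2, Tnnc1 and Myom2 the same held without replicate 1 at 20 µg/mL (0.0636, 0.121 and 0.135). Single left-out libraries at 100 µg/mL also ended the calls of Myom2 and Lmod3 (all 3 libraries) and of Tnnc1 (replicate 2), with adjusted p from 0.0572 to 0.0738.

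Myogenic factors and fusion genes were mostly not called. Of 29 tested, 5 rose and 6 fell (17.2% and 20.7%, against 8.56% and 10.2% of all genes). Myog, the factor that starts differentiation, had 851, 884 and 849.5 CPM at 20 µg/mL and 981, 991 and 921 CPM at 500 µg/mL, a rise of 1.12-fold (adjusted p = 0.0141) that was not called without replicate 1 or 3 at 20 µg/mL or replicate 1 at 500 µg/mL (adjusted p = 0.0681, 0.0635 and 0.0552). The caveolin of muscle, Cav3, rose by 0.30, the cofactor Eya1 by 0.48, the tubule-shaping protein Bin1 by 0.25 and the membrane protein Tmem182 by 0.19. Myf6, a late myogenic factor, fell by 1.16 but from only 2.00 ± 0.146 CPM, and the surface receptor Cdon fell by 0.19. Markers of reserve cells, myoblasts and satellite cells, taken as 1 list, fell in 11 of 23 cases (47.8%, against 10.2% of all genes). They rose in 2 (8.70%, against 8.56%). Without replicate 2 at 500 µg/mL 11 fell and 1 rose. Cyclin D1 (Ccnd1) fell from 26.5 ± 1.46 to 13.4 ± 0.606 CPM, the adhesion molecule Vcam1 from 52.5 ± 1.23 to 35.2 ± 0.878 CPM, Cd34 from 20.7 ± 0.692 to 14.5 ± 0.321 CPM and the Notch effector Heyl from 57.7 ± 3.35 to 33.3 ± 3.79 CPM. Gas1, a surface protein of arrested cells, rose from 86.9 ± 2.56 to 145 ± 8.31 CPM, and Spry1, an inhibitor of growth factor signalling, by 0.17. In the Notch pathway 7 of 19 fell and 3 rose (36.8% and 15.8%, against 10.2% and 8.56% of all genes). Among the falls were the ligand Dll1, by 0.60, and the receptors Notch3 and Notch1, by 0.31 and 0.26. The rises were in Hes6, by 0.22, the receptor Notch2, by 0.15, and Dtx4, by 0.14.

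Smooth muscle and actin-linked targets of serum response factor fell, with no called gene higher. Of 23 tested, 18 fell (78.3%, against 10.2% of all genes), 0 rose and 5 were not called, with a median of −0.36. Tagln, the actin-bundling protein transgelin, had 269, 278 and 295 CPM at 20 µg/mL and 113, 105 and 115 CPM at 500 µg/mL, 2.53 times lower (log2 −1.34 ± 0.05, adjusted p = 6.17e-10). The groups did not overlap, and it shares exon sequence with Pcsk7 and Gm48529 on the opposite strand. The smooth muscle actin Actg2 had 55.8, 56.0 and 60.7 CPM and then 19.7, 18.6 and 20.3 CPM, 2.95 times lower with each group close together. The regulatory light chain Myl9 fell by 0.89, the LIM protein Csrp1 by 0.72 and the tropomyosin Tpm4 by 0.57. The cytoskeletal actin Actb, a reference gene in many assays, fell by 0.36, from 2234 ± 66.2 to 1746 ± 28.2 CPM, and the smooth muscle actin Acta2 by 0.54, from 2459 ± 64.7 to 1693 ± 30.7 CPM. Srf itself fell by 0.31 on the log2 scale.

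Extracellular matrix genes fell more often than they rose. Of 45 proteoglycans, matricellular proteins and matrix enzymes, 25 fell (55.6%, against 10.2% of all genes) and 7 rose (15.6%, against 8.56%), with a median of −0.25. Tnc, the matricellular protein tenascin C, had 834, 819.6 and 875 CPM at 20 µg/mL and 273, 279 and 297 CPM at 500 µg/mL. It was 2.98 times lower with tight groups (log2 −1.57 ± 0.05, adjusted p = 4.34e-10), and it overlaps 8030451A03Rik on the opposite strand. Fmod, a proteoglycan that binds collagen fibrils, had 12.1, 12.2 and 11.0 CPM and then 3.03, 3.46 and 3.10 CPM, 3.67 times lower. Timp3, an inhibitor of matrix proteases, fell from 444 ± 11.3 to 265 ± 4.11 CPM and the growth factor Ctgf from 206 ± 16.8 to 108 ± 9.65 CPM. In the other direction the anti-angiogenic thrombospondin Thbs2 rose from 181 ± 4.67 to 295 ± 9.00 CPM.

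Collagens and basement membrane proteins followed with 13 of 35 lower and 4 higher (37.1% and 11.4%, against 10.2% and 8.56% of all genes). Without replicate 2 at 500 µg/mL 13 were lower and 8 higher. The short-chain collagen Col8a1 fell by 0.90, Col18a1 of basement membranes by 0.93, and the microfibrillar Col6a3 and Col6a2 by 0.84 and 0.48. The fibrillar Col1a1 had 1282, 1316 and 1381 CPM at 20 µg/mL and 1012, 834 and 1096 CPM at 500 µg/mL, with replicate 2 the lowest (log2 −0.44 ± 0.08, adjusted p = 0.00354). Nid2 and Nid1, which link laminin to collagen IV, rose by 0.51 and 0.37, as did the fibrillar Col3a1, by 0.43, and the laminin chain Lama4, by 0.29.

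Secreted regulators of growth changed in both directions. Of 40 tested genes of IGF, myostatin and BMP signalling, 14 fell and 5 rose (35% and 12.5%, against 10.2% and 8.56% of all genes). Igf1, the main autocrine growth factor of muscle, had 44.8, 45.0 and 40.1 CPM at 20 µg/mL and 24.4, 22.9 and 21.0 CPM at 500 µg/mL, 1.90 times lower without overlap (log2 −0.93 ± 0.06, adjusted p = 1.73e-07). Its binding proteins diverged. Igfbp4 had 44.8, 50.9 and 51.0 CPM and then 132, 114 and 129 CPM, while Igfbp3 had 12.8, 11.8 and 12.9 CPM and then 5.30, 4.63 and 4.12 CPM. The first rose 2.56-fold and the second was 2.66 times lower, both with separate groups. The BMP antagonist Grem1 had 209, 205 and 210.4 CPM at 20 µg/mL and 476, 539 and 468 CPM at 500 µg/mL, 2.38-fold higher with replicate 2 the highest (adjusted p = 1.6e-09). Inhbb, a subunit of activin B, rose from 86.7 ± 2.07 to 197 ± 0.651 CPM with an SD under 1 CPM at the high dose. The activin antagonist follistatin (Fst) fell by 0.73, and the insulin receptor substrate Irs1 by 0.64. The other 2 rises were Igfbp6, by 0.26, and the BMP target Id3, by 0.24.

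**Figure D3:**
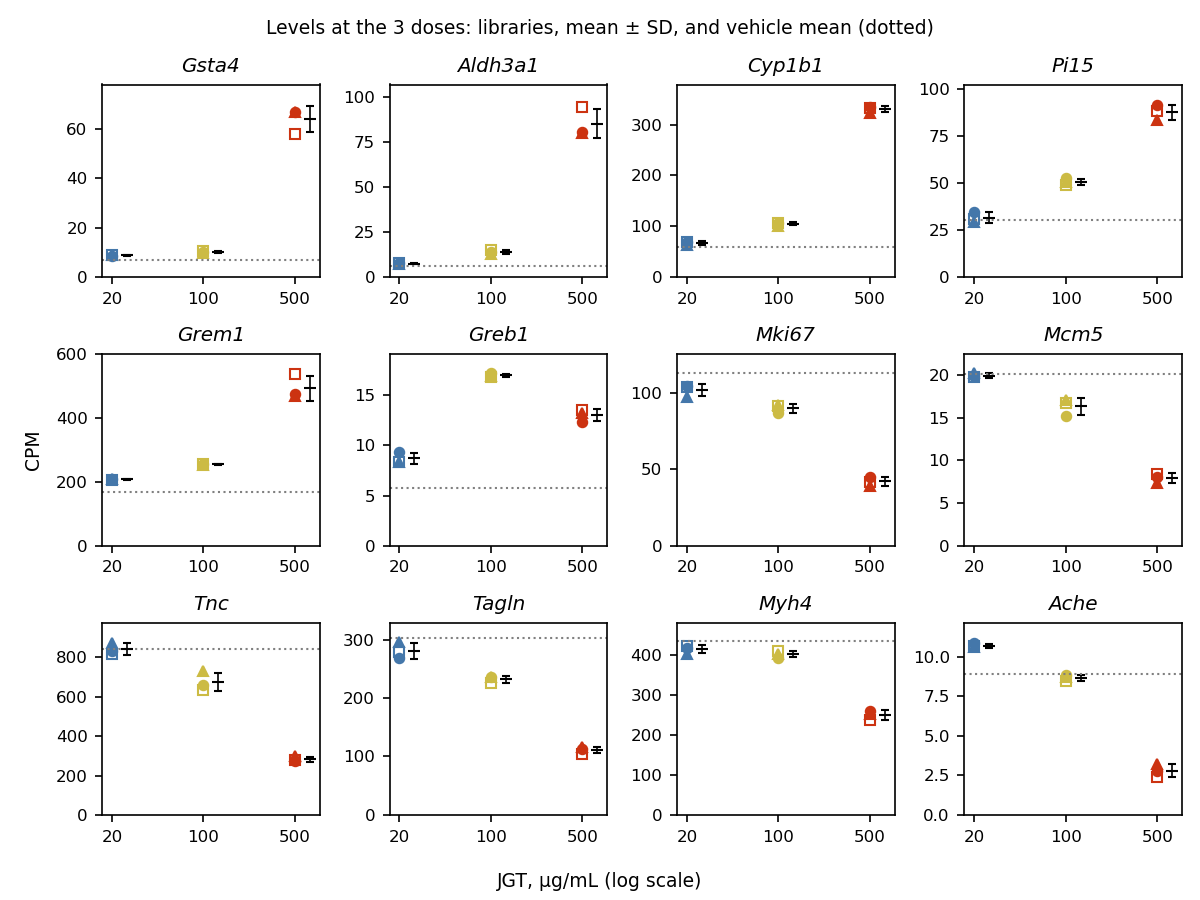
Levels of 12 named genes in CPM against the JGT dose on a log axis; markers are libraries (circle, square and triangle for replicates 1 to 3), black bars the mean ± SD of 3, and the dotted line the mean of the vehicle libraries, which belong to another code series and are shown for scale only. Gsta4, Aldh3a1, Mki67, Myh4 and Ache change mainly between 100 and 500 µg/mL, Pi15 changes in both steps, and Greb1 is highest at 100 µg/mL.

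At the neuromuscular junction and membrane most genes were not called, and a few fell far. Ache, the esterase that ends acetylcholine signalling, had the largest fall among called genes at a mean of 5 CPM or more: 10.9, 10.7 and 10.6 CPM at 20 µg/mL and 2.77, 2.40 and 3.21 CPM at 500 µg/mL. The 3 low-dose libraries were nearly equal and all 3 high-dose libraries were far below them, 3.85 times lower on average (log2 −1.95 ± 0.10, adjusted p = 1.37e-08). It overlaps Gm42456 on the opposite strand. Colq, the collagen tail that anchors the same enzyme, fell from 16.7 ± 0.555 to 11.0 ± 0.489 CPM, and Chrne, the adult acetylcholine receptor subunit, from 3.10 ± 0.366 to 1.33 ± 0.257 CPM. The agrin co-receptor kinase Musk rose by 0.22 and the neuregulin receptor Erbb3 by 0.21. Over the 24 genes tested, 5 fell and 4 rose (20.8% and 16.7%, against 10.2% and 8.56% of all genes). The others were Hdac9 and Ncam1, lower by 0.31 and 0.14, and Hdac4 and the agrin receptor Lrp4, higher by 0.16 and 0.17. Of 32 genes of calcium release and excitability, 6 rose and 5 fell (18.8% and 15.6%, against 8.56% and 10.2% of all genes), or 11 and 7 without replicate 2 at 500 µg/mL. The calcium pump Atp2a1 fell from 774 ± 22.1 to 585 ± 25.8 CPM, the sodium pump subunit Atp1b2 by 1.18, the reticulum protein Srl by 0.29, the voltage sensor Cacna1s by 0.24 and the chloride channel Clcn1 by 1.21, while the potassium channel Kcnn3 rose by 0.36 and the calcium channel subunit Cacng1 by 0.31.

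Of 26 tested ubiquitin ligases and FoxO factors of muscle wasting, the subject of the wider study, 5 rose (19.2%, against 8.56% of all genes), 2 fell and 19 were not called, with a median of 0.05. Without replicate 2 at 500 µg/mL 9 rose and 5 fell. Fbxo32 (atrogin 1) and Trim63 (MuRF1) are the usual markers of atrophy. Fbxo32 had 97.2, 96.9 and 100.1 CPM at 20 µg/mL and 131, 128 and 138 CPM at 500 µg/mL, 1.35-fold higher (log2 0.43 ± 0.04, adjusted p = 4.71e-06). Trim63 had 28.6, 29.8 and 31.0 CPM and then 34.6, 37.6 and 42.0 CPM, 1.28-fold higher (adjusted p = 0.00146). Neither gene overlapped between doses. Fbxo40, a muscle ligase for Irs1, rose further, from 46.3 ± 1.23 to 86.2 ± 6.54 CPM, whereas the ligase adaptor Asb2 fell by 0.75 and the transcription factor Foxo1 by 0.27. The ligase subunit Fbxo21 rose by 0.16 and Foxo4 by 0.15.

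Autophagy genes rose in 14 of 32 cases (43.8%, against 8.56% of all genes) with 0 falls, or 18 and 1 without replicate 2 at 500 µg/mL, at a median of 0.14, and the 5 with the smallest p were 3 receptors and 2 ATG8 proteins. The mitophagy receptor Bnip3 rose from 39.9 ± 1.64 to 55.5 ± 3.19 CPM, the reticulum receptor Calcoco1 by 0.33, the ATG8 proteins Map1lc3a and Gabarapl1 by 0.33 and 0.27, and the cargo receptor Nbr1 by 0.23. Lysosomal genes rose in 7 (16.7%, against 8.56% of all genes) and fell in 1 of 42 cases, or 13 and 5 without replicate 2 at 500 µg/mL. They included the cathepsins Ctsl, Ctsb and Ctsd, up by 0.34, 0.25 and 0.20, and the saposin precursor Psap, up by 0.33; the glucuronidase Gusb fell by 0.14. Of 36 proteasome subunits, 4 rose (11.1%, near the 8.56% of all genes) and 0 fell, which became 15 and 0 without that library, when 17.3% of all genes rose. The 4 were Psmd7, up by 0.27, Psma5, Psmd4 and Psma7, up by 0.19, 0.18 and 0.18.

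**Figure D4:**
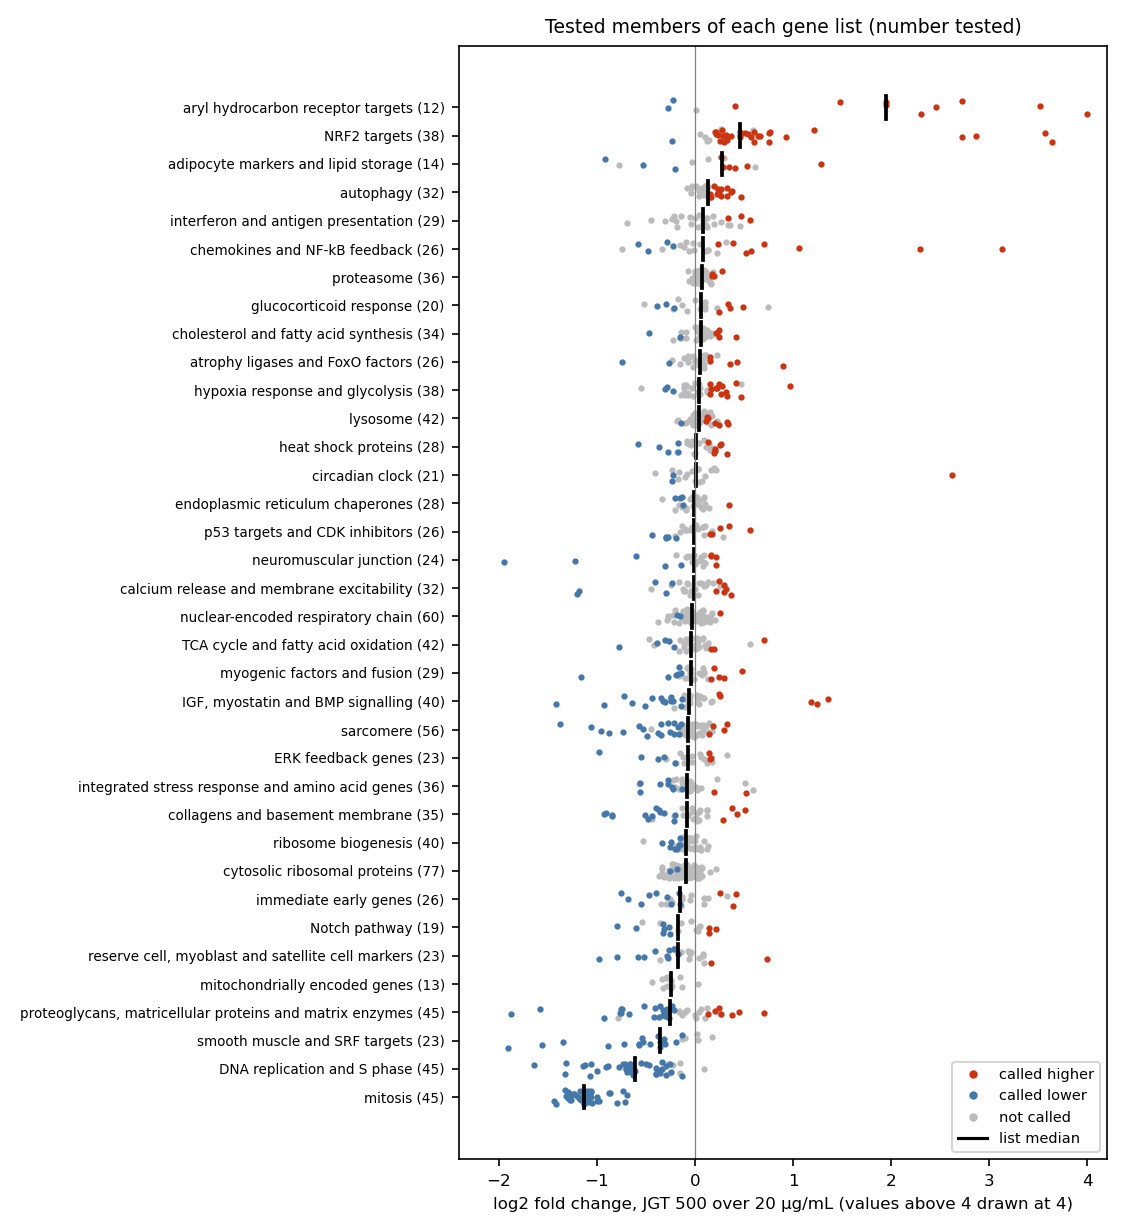
Each point is a tested member of a gene list, placed by its log2 fold change (JGT 500 over 20 µg/mL) and coloured by call, with a black bar at the list median; lists are ordered by median and the number tested is in brackets. Aryl hydrocarbon receptor targets (median 1.95) and NRF2 targets (0.46) stand at one end and mitosis genes (−1.13) and replication genes (−0.61) at the other, and Cyp1a1 is drawn at the edge.

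Lists of energy metabolism differed in how many of their genes were called. The gatekeeper of mitochondrial fatty acid import, Cpt1a, had 45.8, 44.5 and 46.4 CPM at 20 µg/mL and 77.5, 72.3 and 72.5 CPM at 500 µg/mL, 1.63-fold higher with no overlap. In the same list of 42 genes of the TCA cycle and fatty acid oxidation 3 rose and 5 fell (7.14% and 11.9%, near the 8.56% and 10.2% of all genes), or 7 and 13 without replicate 2 at 500 µg/mL. Creatine kinase (Ckm) fell from 306 ± 7.48 to 234 ± 13.2 CPM, the isocitrate dehydrogenase subunit Idh3a by 0.26, the coactivator Ppargc1b by 0.31 and the uncoupling protein Ucp2 by 0.21. The muscle isoform of the same importer, Cpt1b, fell by 0.78 from 1.79 ± 0.634 CPM, with libraries that overlapped between the doses. The dehydrogenase Acadm and the kinase Pdk2 rose by 0.19 and 0.16. Genes of the hypoxia response and glycolysis rose in 13 (34.2%, against 8.56% of all genes) and fell in 3 of 38 cases, or in 14 and 5 without replicate 2 at 500 µg/mL, with the phosphofructokinase Pfkl up by 0.33, the oxygen sensor Egln3 by 0.26, the kinase Pdk1, which slows entry of pyruvate into the cycle, by 0.31, and the muscle isoforms of enolase and phosphoglycerate mutase, Eno3 and Pgam2, down by 0.31 and 0.28. Lipoprotein lipase (Lpl), which frees fatty acids from circulating lipoproteins, had 32.7, 31.4 and 29.6 CPM at 20 µg/mL and 81.1, 76.1 and 72.0 CPM at 500 µg/mL, 2.45-fold higher (adjusted p = 5.1e-09). In its list of adipocyte and lipid storage genes 6 of 14 rose and 3 fell (42.9% and 21.4%, against 8.56% and 10.2% of all genes). The falls were in the lipase inhibitor G0s2, by 0.53, the fatty acid binding protein Fabp5, by 0.91, and the fatty acid receptor Cd36, by 0.20. Synthesis of cholesterol and fatty acids gave 5 rises and 2 falls among 34 genes (14.7% and 5.88%, against 8.56% and 10.2% of all genes). Without replicate 2 at 500 µg/mL it gave 6 and 6, when 17.3% of all genes rose and 17.7% fell. Insig1, Pmvk, Ebp, Hsd17b7 and Acss2 rose by 0.25, 0.42, 0.21, 0.22 and 0.24, and the elongase Elovl6 and the carboxylase Acaca fell by 0.47 and 0.15.

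The respiratory chain, the mitochondrial genome and ribosomes gave few calls, and these counts depended on replicate 2 at 500 µg/mL. Of 60 nuclear-encoded respiratory chain genes 1 rose and 2 fell (1.67% and 3.33%, against 8.56% and 10.2% of all genes). Without that library 16 rose and 20 fell, when 17.3% of all genes rose and 17.7% fell. With all libraries the rise was in Ndufb3 and the falls were in Cyc1 and Atp5o. None of the 3 was called without replicate 1 or 2 at 20 µg/mL or replicate 1 at 500 µg/mL (adjusted p from 0.0541 to 0.139), and other single libraries also ended calls of each. Of 77 cytosolic ribosomal proteins 2 fell (2.60%, against 10.2% of all genes), Rps19 by 0.26 and Rpsa by 0.18, and 0 rose. Without replicate 2 at 500 µg/mL 40 fell and 5 rose, when 17.7% of all genes fell and 17.3% rose. Rpsa was not called when any 1 library at 20 µg/mL was left out (adjusted p from 0.0522 to 0.0728). Over all 77 the median log2 fold change against the 20 µg/mL libraries was −0.15 in replicate 1, 0.00 in replicate 2 and −0.13 in replicate 3. The 13 mitochondrially encoded genes had a median of −0.25 and per high-dose library −0.22, 0.03 and −0.51. Of these, 0 were called by edgeR's quasi-likelihood test or by DESeq2 and 0 had an unadjusted p below 0.05, and 2 fell without replicate 2 at 500 µg/mL. Many ribosomal protein genes have processed copies that can take part of their reads. Of 40 genes of ribosome biogenesis 8 fell (20%, against 10.2% of all genes), led by Ppan, by 0.33, and 0 rose. Without replicate 2 at 500 µg/mL 13 fell and 3 rose.

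Stress pathways other than NRF2 showed no common rise. Integrated stress response and amino acid genes fell in 8 and rose in 2 of 36 cases (22.2% and 5.56%, against 10.2% and 8.56% of all genes). Without replicate 2 at 500 µg/mL 13 fell and 2 rose. The folate enzymes Aldh1l2 and Shmt2 fell by 0.56 and 0.28 and the stress hormone Fgf21 from 31.6 ± 2.74 to 21.3 ± 2.62 CPM. The lipoprotein receptor Vldlr, in the same list, rose by 0.52 and Ppp1r15a, which ends the response, by 0.19. Chaperones of the endoplasmic reticulum gave 1 rise and 4 falls in 28 cases (3.57% and 14.3%, against 8.56% and 10.2% of all genes). Without replicate 2 at 500 µg/mL they gave 7 and 7, when 17.3% of all genes rose and 17.7% fell. With all libraries Herpud1, Syvn1, Ssr1 and Calr fell by 0.20, 0.16, 0.13 and 0.13, and Ero1lb rose by 0.35. Heat shock proteins rose in 7 and fell in 5 of 28, against 8.56% and 10.2% of all genes, or in 11 and 6 without replicate 2 at 500 µg/mL, with the small muscle heat shock proteins Hspb8, Hspb7 and Hspb2 up by 0.33, 0.25 and 0.26 and Hspb6 down by 0.58. The mitochondrial chaperonin Hspd1, the cochaperone Dnajb1, the factor Hsf1 and Hspa1a fell by 0.17, 0.27, 0.17 and 0.36. Hspa1b, a close copy of Hspa1a, rose by 0.20, and since reads may be split between the copies both values are uncertain. Immediate early genes fell in 9 (34.6%, against 10.2% of all genes) and rose in 3 of 26 cases. The zinc-finger factors Egr1 and Egr2 fell by 0.55 and 0.76 and Klf10 by 0.40, while the AP-1 relative Fosl2 rose by 0.38 and the small MAF proteins Maff and Mafk by 0.42 and 0.26. Feedback genes of ERK signalling fell in 5 and rose in 3 of 23 cases (21.7% and 13.0%, against 10.2% and 8.56% of all genes), or in 9 and 2 without replicate 2 at 500 µg/mL: the phosphatases Dusp4, Dusp6 and Dusp5 fell by 0.38, 0.21 and 0.31 together with Ccnd1 and Egr1, and Epha2, Dusp10 and Spry1 rose, the first 2 by 0.15 and 0.15.

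Among 26 chemokines and NF-kB feedback genes 8 rose (30.8%, against 8.56% of all genes) and 4 fell (15.4%, against 10.2%). The neutrophil attractants Cxcl5 and Cxcl1 had the largest fold changes but low levels: Cxcl5 had 0.552, 0.408 and 0.374 CPM at 20 µg/mL and 3.37, 5.54 and 2.96 CPM at 500 µg/mL, and Cxcl1 0.607, 0.306 and 0.272 and then 1.97, 2.02 and 2.04 CPM. Both were higher in every high-dose library. The growth factor Csf1 fell by 0.28, the cytokine Lif by 0.47 and the feedback inhibitor Socs3 by 0.22, and the receptor Il6ra rose by 0.52. Of 29 interferon and antigen presentation genes 3 rose (10.3%, near the 8.56% of all genes) and 0 fell. The rises were in the factors Stat2 and Irf7, by 0.34 and 0.56, and the peptide transporter Tap2, by 0.47. Among 20 glucocorticoid-responsive genes 4 rose and 3 fell (20% and 15%, against 8.56% and 10.2% of all genes). Hsd11b1, the enzyme that regenerates active glucocorticoid, rose by 0.49. The leucine zipper protein Tsc22d3 rose by 0.34, glutamine synthetase (Glul) by 0.36 and the factor Klf9 by 0.25. The falls were in Errfi1, by 0.38, the metallothionein Mt1, by 0.22, and Cdkn1c, already named. Of 21 clock genes 1 rose and 2 fell (4.76% and 9.52%, against 8.56% and 10.2% of all genes). Hlf rose by 2.62 from 0.563 ± 0.106 CPM, and Bhlhe41 and Bhlhe40 fell by 0.23 and 0.22. Without replicate 2 at 500 µg/mL 2 rose and 5 fell, when 17.3% of all genes rose and 17.7% fell.

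The libraries at 100 µg/mL show where along the span these changes fell. On a log scale 100 µg/mL lies midway between the 2 doses compared. For genes that rose, the median share of the log2 change already present at 100 µg/mL was 23.0%, and for genes that fell 19.2%. The mean at 100 µg/mL lay between the other 2 for 1043 of 1232 genes that rose and 1243 of 1474 that fell. A test of the second step (100 to 500) minus the first (20 to 100) called 250 genes (1.74% of those tested), 52 positive and 198 negative; scaling by library totals alone gave 67 positive and 144 negative. Of the 2706 genes called across the span, 231 (8.54%) were among them, 229 with a larger second step in the direction of the change. All 3 libraries at 100 µg/mL were deep, with at least 32645327 counts, so that this contrast and library depth overlap: with a term for depth in the fit 127 genes were called, 107 of them among the 250, and without replicate 2 at 500 µg/mL alone 1939 were called.

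Mitosis genes held many of these calls. Of 45, 37 had a larger second step downward (25 with the depth term), where 1.74% of all genes were called. The test called 8 of 45 replication genes, 11 of 38 NRF2 targets and 5 of 12 aryl hydrocarbon receptor targets (3, 7 and 5 with the depth term). Other lists had shares like the 17.8% of replication genes. Among them were IGF, myostatin and BMP signalling (22.5%), reserve cell, myoblast and satellite cell markers (21.7%) and proteoglycans, matricellular proteins and matrix enzymes (20.0%). Among genes called in both tests at a mean of 5 CPM or more, Gsta4 had the largest positive difference between steps: its mean was 8.83 CPM at 20, 10.1 CPM at 100 and 64.1 CPM at 500 µg/mL, a difference of 2.47 ± 0.13 on the log2 scale (adjusted p = 5.78e-07). Gsta1, Nqo1 and Aldh3a1 followed at 2.40, 1.90 and 1.69, and Kng2, a kininogen, at 1.22, with means of 3.25, 3.15 and 7.04 CPM. On the negative side Ache stood at −1.34, with means of 10.7, 8.69 and 2.79 CPM, and Fmod, Igfbp3 and Troap at −1.26, −1.14 and −1.05; Troap was not called with the depth term (adjusted p = 0.0646). For other rises no difference between the steps was called. Akr1c14 went from 2.43 to 4.44 and 7.60 CPM, with a difference between steps of −0.09 ± 0.16 (adjusted p = 0.856), and Pi15 from 31.6 to 50.6 and 87.8 CPM, with 0.12 ± 0.10.

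Greb1, an estrogen-responsive gene in other tissues, did not follow the dose in order. It had 9.39, 8.37 and 8.36 CPM at 20 µg/mL, 17.2, 16.8 and 17.0 CPM at 100 µg/mL and 12.4, 13.6 and 13.2 CPM at 500 µg/mL. The middle dose was above both others in all 3 libraries, and the step from 100 to 500 µg/mL ran against the rise across the whole span (difference between steps −1.34 ± 0.11, adjusted p = 8.69e-05; with the depth term −1.18). It is 1 of 2 genes called in both tests with opposite signs, and it overlaps Gm48140 on the opposite strand.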

How the data were processed

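Libraries were made from total RNA with a directional mRNA kit and sequenced as paired-end reads of 100 bases, per the labels' protocols. The deposited values are expected counts per gene symbol; the submitters' processing notes name FastQC 0.11.9, Trim Galore 0.6.5, STAR 2.7.3a, RSEM 1.3.3 and the builds GRCm38 and mm10, and no source used here gives the strand setting of the counting. The authors' expected counts were rounded to whole numbers here (9.34% were not whole, tolerance 0.005). TMM factors were computed over all 15 libraries, and edgeR 4.0.16 (R 4.3.3) fitted a quasi-likelihood model with group means to the 9 JGT libraries after its filter on low counts. Restricting the fit to JGT libraries kept out the vehicle and untreated libraries, which belong to another code series of the deposit. The fit had 6 residual degrees of freedom and a biological coefficient of variation of 6.04%. Genes were called at a Benjamini-Hochberg adjusted p below 0.05 over all 14397. CPM values use TMM-scaled totals. Promoter windows came from RefSeq (GRCm38.p6) and positions and overlaps from GENCODE M21.

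The genes named were the 15 largest rises and 15 largest falls at a mean of at least 5 CPM without overlap, 16 chosen genes, the 5 smallest p of each list and the 5 largest curve values in each direction. The genes compared and the 36 lists were chosen with earlier results of these data known. Actb, Acta2, Srf, Ahr, Ahrr, Tiparp, Ugt1a7c, Cyp1a1, Slc7a5, Akr1b8, Gclc, Gclm, Gsta2, Fth1, Txnrd1, Srxn1, Cdc6, Rrm1, Fst, Irs1, Myh7, Myh8 and every member named to complete a count of 5 or fewer fall outside that rule and were added after their values were seen. In GENCODE M21, 74 of the 246 genes named overlap an exon of an opposite-strand gene and may hold its reads. Beside Ugt1a6a, Pi15, Adh7, Hist1h2ap, Tagln, Tnc, Ache and Greb1 these are Acss2, Ahr, Aldh1l2, Atp2a1, Atp5o, Bhlhe40, Bhlhe41, Bin1, Bnip3, Cacna1s, Cacna2d2, Ccna2, Ccnd1, Cd34, Cdkn1a, Cdkn1c, Ckap2l, Ckm, Clcn1, Ctsb, Ctsl, Dll1, Dusp5, E2f7, E2f8, Elovl6, Fbxo32, Foxo1, Fst, Gabarapl1, Gadd45a, Gas1, Gclm, Glul, Hdac4, Hspa1a, Hspb2, Hspb6, Hspd1, Il6ra, Irf7, Irs1, Mafk, Mybpc1, Myh2, Myh7, Ncam1, Nid1, Nid2, Notch1, Notch3, Plk1, Pole, Ppp1r15a, Psma5, Shmt2, Spry1, Syvn1, Tap2, Timp3, Tiparp, Tpm4, Troap, Ucp2, Ugt1a7c and Vcam1. DESeq2 1.42.0, limma 3.58.1 with library weights, other scalings and filters, left-out libraries and a replicate block were tried as alternatives. The calling code was tested on simulated data.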

Additional observations from a re-analysis of the deposited data

How the results depend on the processing

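Among alternatives that called genes by adjusted p alone, the count of 2706 genes between the doses moved most without replicate 2 at 500 µg/mL. Leaving out 1 library at a time gave 1869 to 5034 called genes, the highest without that library, and weighting libraries by their spread (limma) gave 4392. Removing both it and replicate 1 at 20 µg/mL, the other deep library, an alternative added after the data were seen, gave 4279. Requiring a log2 fold change of at least 1 gave 275. DESeq2 called 2387. Deviations of same-numbered libraries correlated at −0.18, −0.23 and 0.04 between 20 and 500 µg/mL, at −0.09, −0.08 and 0.07 between 20 and 100 µg/mL and at 0.08, 0.12 and 0.11 between 100 and 500 µg/mL. Each 100 µg/mL library correlated best with its own number at 500 µg/mL, and of the libraries at 20 µg/mL replicate 3 alone correlated best with its own number, so the libraries were treated as sharing only a number. A replicate block gave 2824 calls with 9 libraries. With only the 6 libraries compared, 1974 genes were called without a block and 1580 with it. The 440 called list members became 466 with the block on 9 libraries. With only the 6 libraries they were 368 without the block and 348 with it. For the contrast between the dose steps, 250 calls became 261 with the replicate block, 422 with all 15 libraries in the fit, 1269 with library weights, 127 with the added depth term and 2333 without both deep libraries, and 84 to 1939 with 1 library left out, the highest again without replicate 2 at 500 µg/mL. Of the 244 called genes named, 185 kept their call over 21 alternatives and 0 changed direction. The other 59 lost it in at least 1, with adjusted p up to 0.218: Acaca, Acadm, Acss2, Atp5o, Bin1, Calr, Cd36, Cdkn1a, Cdkn1b, Cdkn1c, Cdkn2d, Cpt1b, Cyc1, Dnajb1, Dtx4, Dusp10, Dusp5, Dusp6, Epha2, Ero1lb, Fbxo21, Foxo4, Gusb, Hdac4, Hsd17b7, Hsf1, Hspa1a, Hspd1, Id3, Insig1, Irf7, Lama4, Lmod3, Lrp4, Mafk, Mt1, Myh3, Myog, Myom2, Ncam1, Ndufb3, Notch2, Pdk2, Pgam2, Ppp1r15a, Psma5, Psma7, Psmd4, Rpsa, Slc7a5, Socs3, Spry1, Ssr1, Syvn1, Tnnc1, Tnnt2, Trp53, Tubb3 and Ucp2. The cause was not tested. None of the 12 list medians of at least 0.1 in size changed sign, but some smaller ones did. Without replicate 2 at 500 µg/mL the median of p53 targets and cyclin-dependent kinase inhibitors went from −0.01 to 0.04. That of calcium release and excitability went from −0.01 to 0.02. Depth limits low-level genes, since 1 CPM in the smallest library, of 27846117 counts, rests on about 28 counts.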

Other observations

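Genes below the level used for the main description held some of the largest fold changes; they were picked after their values were seen. Cck, a gut and brain peptide hormone, rose from 0.408 ± 0.0338 to 2.65 ± 0.498 CPM, the collagenase Mmp13 from 0.438 ± 0.178 to 2.18 ± 0.213 CPM and the focal adhesion protein Tns4 by 2.30 on the log2 scale to 1.88 ± 0.0508 CPM. Nfatc2, a calcium-regulated transcription factor that acts in myotube growth, had 2.26, 3.20 and 3.40 CPM at 20 µg/mL and 0.300, 0.293 and 0.458 CPM at 500 µg/mL. All 3 high-dose libraries lay well below the low-dose ones, 8.38 times lower (log2 −3.07 ± 0.25, adjusted p = 1.18e-06, edgeR's quasi-likelihood test). Cacna2d2, a calcium channel subunit, fell from 4.93 ± 0.478 to 1.19 ± 0.0658 CPM, and Eef1a2, the elongation factor that replaces Eef1a1 in adult muscle, from 1.92 ± 0.0205 to 0.568 ± 0.0755 CPM. The glycosylase Neil3, a DNA repair enzyme of dividing cells, fell by 1.48 and the secreted repeat protein Cthrc1 by 1.48 on the log2 scale. The acute-phase gene Saa3 had 2 counts over the 3 libraries at 20 µg/mL and 32 at 500 µg/mL, and the somatostatin receptor Sstr2 had 31 and 3.

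Some counts came from a single library. Pde2a had 115 counts at 20 µg/mL, all of them in replicate 1, and Gm28439 had 113 counts at 500 µg/mL, all in replicate 3.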
